A study of Mus musculus with 12 samples.

Results

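The genes described here encode proteins of synaptic vesicles and of transmitter release: the fusion proteins, their calcium sensors and brakes, the scaffold of the release site, the synapsins and membrane proteins of the vesicle, Rab3 GTPases and the transporters that fill vesicles with glutamate. They were chosen by a list of 38 gene symbols, taking every probe set whose platform annotation gave a listed symbol as its only gene. Of the 38 genes, 37 had such a probe set, with 89 probe sets in all, out of 18193 genes and 45037 probe sets on the array. Slc17a8 had none. Where a gene had several probe sets, the one with the highest mean over the 12 arrays stands for the gene unless another is named, and probe sets of a gene are numbered in order of their identifier.

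Each of 12 Affymetrix arrays measured total RNA of 1 tissue sample from an adult female mouse aged 38 to 40 weeks, after 6 generations of back-crossing to C57BL/6. The groups were APPsα-DM hippocampus, APLP2-KO hippocampus, APPsα-DM cortex and APLP2-KO cortex, with 3 arrays each, and cortex means prefrontal cortex. APPsα-DM mice are labelled APPα/α APLP2-/- and APLP2-KO mice APLP2-/-, so both genotypes lack the APP relative APLP2 and differ in App. The edited App allele is known to end in a premature stop, so that its only product is the secreted ectodomain APPsα. No wild type was analysed here, so every genotype difference is one against a background without APLP2. The series gives 3 mice per genotype, but its labels do not tie a hippocampus to the cortex of the same mouse.

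At a nerve terminal, vesicles are tethered and primed at the active zone by scaffold proteins such as RIM, Munc13 and ELKS. Calcium that enters with an action potential binds synaptotagmin, which lets the SNARE proteins of vesicle and cell membrane zip together, while complexin holds and times that step. NSF and alpha-SNAP then pull the spent SNARE complexes apart. Most of these proteins exist as several paralogues that differ between kinds of neurons. In bulk tissue, fewer cells of a type and less RNA per cell cannot be told apart.

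Promoters are shown for members that differed between the tissues, as described further on, to place the genes in the genome. RefSeq promoter windows (build GRCm38.p6) were found for 29 of the 37 members. Printed are the 250 bases before the start, 5′ to 3′ on the gene's strand, of members past the threshold whose window ended directly at the annotated gene start: the 3 largest falls in hippocampus among them, Stx1a, Cplx3 and Rims1, and the only 2 rises, Syn2 and Nsf. Syn2 has 2 starts in the table, of which the first listed was used. Capitals mark the letters of motifs searched on both strands: the CRE TGACGTCA, the GC box GGGCGG, the TATA box TATAAA, the E-box CACGTG, the EGR site GCGNGGGCG and the CCAAT box CCAAT. In Syn2 an EGR site and a GC box overlap and are capitalised as 1 stretch.
Stx1a, chr5:135023232-135023481, plus strand: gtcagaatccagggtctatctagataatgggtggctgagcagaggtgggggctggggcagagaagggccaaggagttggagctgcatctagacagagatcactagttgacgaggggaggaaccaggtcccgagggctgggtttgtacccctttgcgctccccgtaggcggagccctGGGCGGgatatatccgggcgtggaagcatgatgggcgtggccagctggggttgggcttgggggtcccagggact
Cplx3, chr9:57606282-57606531, minus strand: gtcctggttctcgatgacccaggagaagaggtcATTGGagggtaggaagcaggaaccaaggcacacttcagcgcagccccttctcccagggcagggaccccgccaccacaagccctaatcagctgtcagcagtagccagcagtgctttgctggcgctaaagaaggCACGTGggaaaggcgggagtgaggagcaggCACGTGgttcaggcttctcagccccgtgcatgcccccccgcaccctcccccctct
Rims1, chr1:22806159-22806408, minus strand: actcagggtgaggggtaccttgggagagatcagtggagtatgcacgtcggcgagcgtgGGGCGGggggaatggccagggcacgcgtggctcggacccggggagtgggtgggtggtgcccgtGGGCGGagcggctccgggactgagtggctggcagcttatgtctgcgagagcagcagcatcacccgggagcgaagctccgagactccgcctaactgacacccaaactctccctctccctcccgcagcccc
Syn2, chr6:115134652-115134901, plus strand: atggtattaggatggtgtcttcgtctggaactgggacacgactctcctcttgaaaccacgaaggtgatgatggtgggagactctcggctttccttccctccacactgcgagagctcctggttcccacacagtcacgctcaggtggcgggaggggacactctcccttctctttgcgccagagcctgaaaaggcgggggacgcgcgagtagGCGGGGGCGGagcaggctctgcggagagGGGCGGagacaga
Nsf, chr11:103954057-103954306, minus strand: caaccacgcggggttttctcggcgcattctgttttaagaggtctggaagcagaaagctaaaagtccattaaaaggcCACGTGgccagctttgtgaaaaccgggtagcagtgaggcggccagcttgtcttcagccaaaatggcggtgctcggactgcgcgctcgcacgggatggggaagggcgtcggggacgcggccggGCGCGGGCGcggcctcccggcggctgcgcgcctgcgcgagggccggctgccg

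These windows were rich in G and C, at 62% in Stx1a, 62.8% in Cplx3, 68% in Rims1, 61.2% in Syn2 and 66% in Nsf. Over the 29 members with a window the median was 61.2%, against 55.2% over 17492 protein-coding genes. The GC box, which Sp1-type factors bind, was in 72.4% of the member windows (21 of 29) and in 42.7% of all windows. It was in 10 of the 13 windows of members lower in hippocampus and in 2 of the 4 windows of members higher there. The E-box CACGTG was in 13.8% of member windows against 6.64% of all, the EGR site in 10.3% against 6.25%, and the CRE in 3.45% (Syn1 alone) against 2.01%. The CCAAT box was in 31% of member windows against 36.3% of all, and the TATA box in 6.9% against 12.4%. A match describes letters only, and whether a factor binds there was not analysed here.

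The arrays were checked against their labels before the members were compared. App, the edited gene, read 11.46 to 11.83 on the log2 scale on the APPsα-DM arrays and 13.38 to 13.50 on the APLP2-KO arrays through its brightest probe set. All 6 markers of the dentate gyrus and CA fields were higher in hippocampus, and 3 of 4 measured cortex markers were lower there, with Fezf2 going the other way (0.39 higher). The pieces also differed in neighbouring tissue. The 6 measured striatal markers averaged 6.996 to 7.42 in hippocampus and 9.17 to 9.88 in cortex, and the 8 choroid plexus markers averaged 5.50 to 8.83 in hippocampus and 4.70 to 7.80 in cortex. The GABAergic markers averaged 10.24 to 10.49 in hippocampus and 10.78 to 10.89 in cortex, and the 10 general neuron markers 11.16 to 11.26 and 11.29 to 11.44. The 7 astrocyte markers went the other way, at 10.38 to 10.52 in hippocampus and 10.08 to 10.35 in cortex, with 4 of them called higher and 2 lower in hippocampus. The part of these tissue shares in the results was not tested.

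Some release genes differed between the tissues in both directions, a few of them in large steps. Doc2b was 3.72-fold higher in hippocampus than in cortex, while Rims3 was 3.25-fold, Stx1a 2.47-fold and Syt2 1.85-fold lower there. With the genotypes averaged, 19 of the 37 members passed the threshold of 0.05 on limma's adjusted p, 5 higher and 14 lower in hippocampus. That is 51.4% of the members, against 21% of all probe sets and 32.4% of the probe sets with a mean log2 signal of at least 6, the range in which all members but Sv2c lay. By direction, 13.5% of members were called higher (all probe sets 10.3%, brighter ones 15.8%) and 37.8% lower (10.7% and 16.6%). The share called higher was thus below that of the brighter probe sets, and only the share called lower was above it. The counts by role below rest on 2 to 9 measured members each and have these shares as their background. The median difference, hippocampus minus cortex, was -0.12 on the log2 scale over the members and -0.01 over all probe sets, and 27 of the 37 members were below 0, or 73% against 52%. The median size of a difference, without its sign, was 0.25 over members, 0.09 over all probe sets and 0.12 over the brighter ones.

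The fusion proteins and the factors that recycle them split: of 7 measured, Nsf rose and Stx1a, Vamp1 and Napa fell in hippocampus relative to cortex. Stx1a (chromosome 5) encodes syntaxin 1A, the SNARE of the cell membrane. It read 10.74, 10.75 and 10.86 in APPsα-DM hippocampus, 10.91, 10.90 and 10.72 in APLP2-KO hippocampus, 12.12, 11.99 and 11.95 in APPsα-DM cortex and 12.29, 12.25 and 12.13 in APLP2-KO cortex. Every hippocampal array lay more than 1 log2 unit below every cortex array, a difference of -1.31 ± 0.05 (SE, adjusted p = 7.3e-09, 6 arrays per tissue), and the other Stx1a probe set gave -1.43. Vamp1, the synaptobrevin best known from spinal cord and brainstem, read 9.97, 10.06 and 10.33 in hippocampus and 10.21, 10.54 and 10.69 in cortex (lowest, median and highest of 6 arrays). It fell by 0.42 ± 0.07 on the log2 scale (adjusted p = 0.001), with some overlap of the tissues, and its other probe set gave -0.22 (adjusted p = 0.216). Nsf, the ATPase that takes SNARE complexes apart, read 12.93, 12.98 and 13.03 in hippocampus and 12.59, 12.73 and 12.80 in cortex. Its rise was small, 0.28 ± 0.05 (adjusted p = 0.002), but the tissues did not overlap. Nsf probe sets 1 and 4 rose by more, 0.50 and 0.59, also without overlap, and the dim probe set 3 differed by 0.12 and did not pass. Napa, the alpha-SNAP that brings NSF to the complex, went the other way by -0.16 ± 0.04 (adjusted p = 0.016), while its other probe set differed by -0.02 and did not pass. The general neuronal SNAREs Snap25 and Vamp2, and Snapin, which binds SNAP-25, were within -0.12 to 0.00 of cortex and did not pass; the 95% interval of Snap25 ran from -0.17 to 0.04.

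Among the 5 calcium sensors Doc2b rose, Syt2 fell and Syt1, Syt4 and Syt7 did not pass. Doc2b (chromosome 11), a high-affinity sensor linked to spontaneous and asynchronous release, read 10.15, 10.42 and 9.92 in APPsα-DM hippocampus, 10.09, 10.08 and 10.34 in APLP2-KO hippocampus, 8.21, 8.36 and 8.77 in APPsα-DM cortex and 8.40, 8.05 and 7.85 in APLP2-KO cortex. The lowest hippocampal array was above the highest cortex array by more than 1 log2 unit, and the difference was 1.89 ± 0.12 (adjusted p = 2.7e-07). Syt2 (chromosome 1), the fast sensor of many inhibitory terminals, read 7.40, 7.86 and 7.61 in APPsα-DM hippocampus, 7.40, 7.13 and 6.86 in APLP2-KO hippocampus, 8.39, 8.32 and 8.13 in APPsα-DM cortex and 8.43, 8.25 and 8.06 in APLP2-KO cortex. The tissues did not overlap, the difference was -0.88 ± 0.11 (adjusted p = 5.5e-05), and the other 2 Syt2 probe sets gave -0.96 and -0.68. Beside Syt2 and Vamp1, 4 of 7 GABAergic markers were lower in hippocampus, with differences of -0.83 for Pvalb, -0.65 for Slc32a1, -0.97 for Vip and -0.94 for Npy, while Gad1, Gad2 and Sst differed by -0.05, -0.19 and 0.10 and did not pass. The part of these markers in the result was not tested. Syt1, the main fast sensor of forebrain neurons, differed by -0.11 (adjusted p = 0.13) and Syt7, a slow high-affinity sensor, by 0.12 (adjusted p = 0.224). A dimmer Syt1 probe set (number 4) was higher by 0.49 (adjusted p = 0.044). For Syt4, a synaptotagmin that does not trigger fast release by itself, probe set 2 fell by 0.52 on the log2 scale (adjusted p = 3.7e-05), against -0.23 (adjusted p = 0.063) for the probe set used.

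Of the complexins, which clamp and speed SNARE-driven fusion, Cplx1 and Cplx3 fell in hippocampus and Cplx2 differed by 0.06 (95% interval -0.06 to 0.19). Cplx3 (chromosome 9), best known from retinal ribbon synapses and deep cortical neurons, read 7.59, 7.40 and 7.56 in APPsα-DM hippocampus, 7.76, 7.33 and 6.70 in APLP2-KO hippocampus, 7.84, 8.09 and 7.98 in APPsα-DM cortex and 8.37, 8.17 and 8.30 in APLP2-KO cortex. The tissues did not overlap (-0.74 ± 0.14, adjusted p = 0.0018), and the low reading of 6.70 in 1 APLP2-KO hippocampus made it one of the most variable members. Cplx1, a complexin of many central synapses, differed by less, -0.27 ± 0.05 (adjusted p = 0.0029), again without overlap. Cplx1 probe set 2 gave -0.23, with overlap, and did not pass. A second look at Cplx2 through its probe set 1 gave -0.26 (adjusted p = 0.025).

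In the active zone 5 of 9 members were lower and 1 higher. Rims3 (chromosome 4), a short RIM that keeps only the C-terminal C2 domain, read 8.35, 8.82 and 8.40 in APPsα-DM hippocampus, 8.63, 8.57 and 8.21 in APLP2-KO hippocampus, 10.24, 9.99 and 9.98 in APPsα-DM cortex and 10.50, 10.40 and 10.06 in APLP2-KO cortex. The gap between the tissues was wider than 1 log2 unit, with a difference of -1.70 ± 0.11 (adjusted p = 2.6e-07). A dim second Rims3 probe set (mean 5.51) gave -0.56, so that the mean of both probe sets was -1.13. Rims1, a full-length RIM that recruits calcium channels and Munc13, read 10.18, 10.33 and 10.42 in hippocampus and 10.67, 10.79 and 11.04 in cortex (lowest, median and highest) and differed by -0.49 ± 0.05 (adjusted p = 2.5e-05). Its relative Rims2 differed by -0.21 ± 0.06 (adjusted p = 0.023) with overlapping tissues. Rims2 probe sets 1, 4 and 5 fell by 0.42, 0.38 and 0.53 on the log2 scale, probe sets 1 and 5 without overlap, and the dim probe set 2 differed by -0.08 and did not pass. Unc13c, the Munc13-3 known from the cerebellum, read 8.17, 8.36 and 8.50 in hippocampus and 8.85, 9.09 and 9.43 in cortex, without overlap (-0.79 ± 0.10, adjusted p = 7.7e-05). Unc13a, the Munc13-1 that primes most forebrain vesicles, differed by -0.26 ± 0.08 (adjusted p = 0.025), and Unc13b by -0.01 (95% interval -0.13 to 0.10). Erc2, an ELKS-family scaffold also called CAST, was the member that rose: 11.42, 11.50 and 11.63 in hippocampus, 11.09, 11.15 and 11.28 in cortex, no overlap (0.34 ± 0.05, adjusted p = 0.00016). The giant scaffolds Bsn (-0.26 ± 0.09, adjusted p = 0.059) and Pclo (-0.19, adjusted p = 0.134) did not pass.

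Among the 7 vesicle clustering and membrane proteins 1 rose and 2 fell, none by more than 0.38. Syn2, a synapsin that tethers reserve vesicles, read 11.94, 11.97 and 12.11 in hippocampus and 11.55, 11.61 and 11.70 in cortex and rose by 0.38 ± 0.05 (adjusted p = 9e-05). All 6 Syn2 probe sets were higher in hippocampus, by 0.28 to 0.75. Its paralogues Syn1 and Syn3 differed by -0.13 (adjusted p = 0.15) and 0.03 (adjusted p = 0.868). Sv2a and Sv2b, vesicle glycoproteins of the transporter fold, fell by 0.28 and 0.25 on the log2 scale (adjusted p = 0.0082 and 0.0036), both without overlap of the tissues, although the other Sv2b probe set (-0.19, adjusted p = 0.184) did not pass. Sv2c was dim on every array, at 3.75 to 4.18. Syp, synaptophysin, the classic vesicle marker, differed by -0.03 with an interval of -0.12 to 0.06.

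Of the Rab3 GTPases, which bring vesicles to RIM, only Rab3c passed through the probe set used, and the effector Rph3a (rabphilin 3A) fell. Rab3c read 11.50, 11.50 and 11.62 in hippocampus and 11.09, 11.20 and 11.38 in cortex (0.31 ± 0.05, adjusted p = 0.00089); its 4 dimmer probe sets gave -0.03 to 0.29 and none of them passed, and the mean of all 5 was 0.17. Rph3a, which binds Rab3 and membranes through C2 domains, read 10.36, 10.46 and 10.63 in hippocampus and 11.03, 11.15 and 11.40 in cortex, without overlap (-0.72 ± 0.07, adjusted p = 5.5e-06). Rab3a and Rab3b differed by -0.00 and -0.01, within intervals of -0.09 to 0.09 and -0.15 to 0.14, although Rab3a probe set 1 fell by 0.16 (adjusted p = 0.011). The glutamate transporters did not pass. Slc17a7, the VGLUT1 of cortical and hippocampal excitatory terminals, differed by -0.08 (95% interval -0.23 to 0.06). Slc17a6, the VGLUT2 best known in the cortex from thalamic afferents, differed by 0.38 ± 0.16 (adjusted p = 0.126), with readings of 7.83 to 8.87 in hippocampus and 7.94 to 8.68 in cortex. The highest cortex reading came from APLP2-KO cortex 1, whose thalamus markers averaged 7.73, against 7.01 to 7.20 on the other cortex arrays. Lef1 of that list was not highest there, at 6.24 with cortex arrays at 6.15 to 6.44. The other Slc17a6 probe set was higher in hippocampus by 0.56 and did not pass. On it APLP2-KO cortex 1 was again the highest cortex array, at 7.04, but with APLP2-KO cortex 2 close at 6.99. The part of thalamic tissue in the Slc17a6 reading was not tested.

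**Figure D1:**
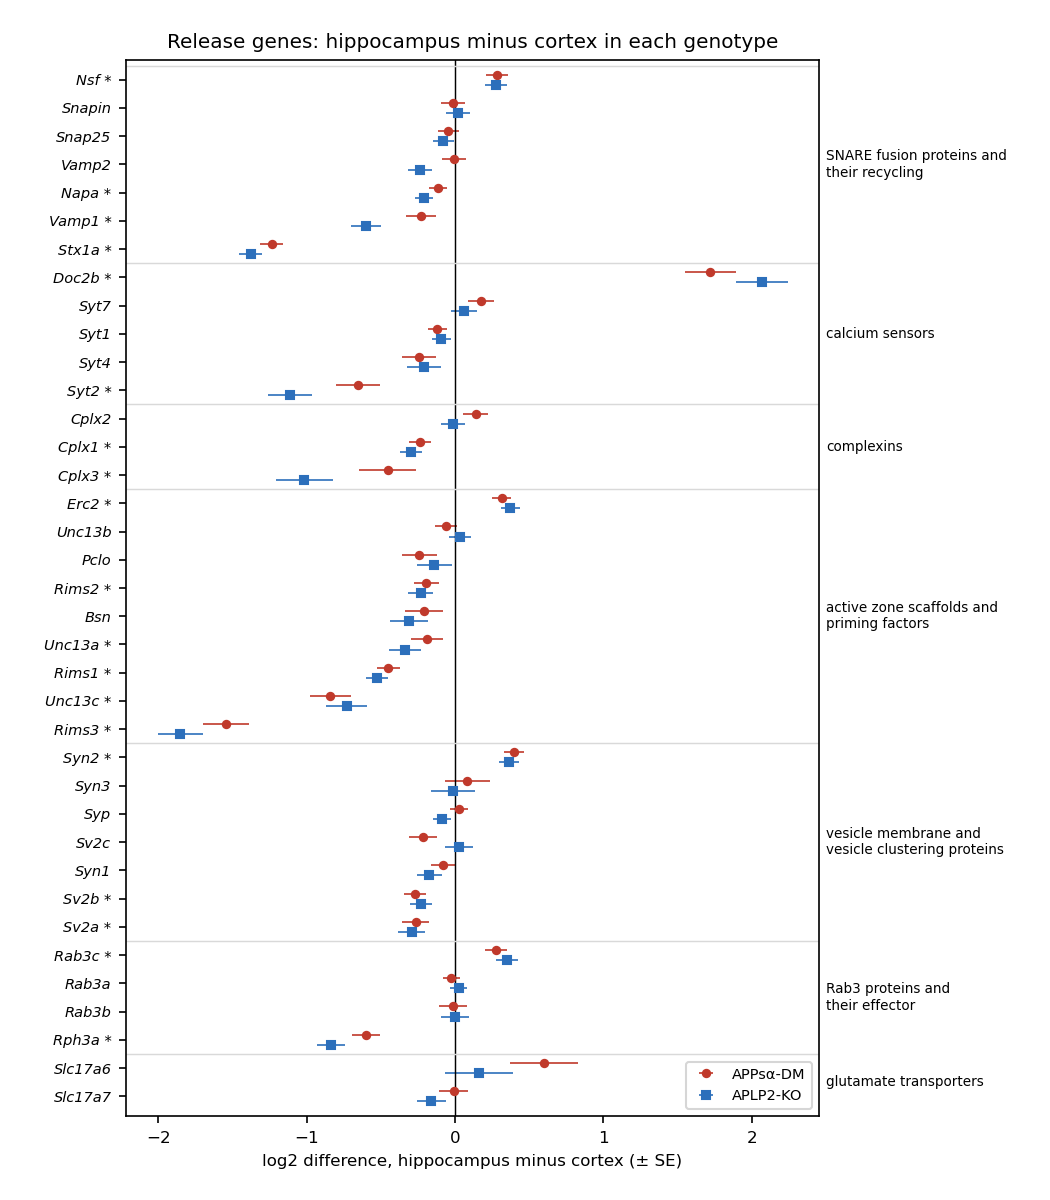
Log2 difference, hippocampus minus cortex, of each of the 37 genes in APPsα-DM (red circles) and APLP2-KO (blue squares), with moderated SE bars, grouped by role; an asterisk marks members past the threshold with the genotypes averaged. Doc2b stands at the right (1.72 in APPsα-DM and 2.07 in APLP2-KO) and Rims3 and Stx1a at the left in both genotypes.

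**Figure D2:**
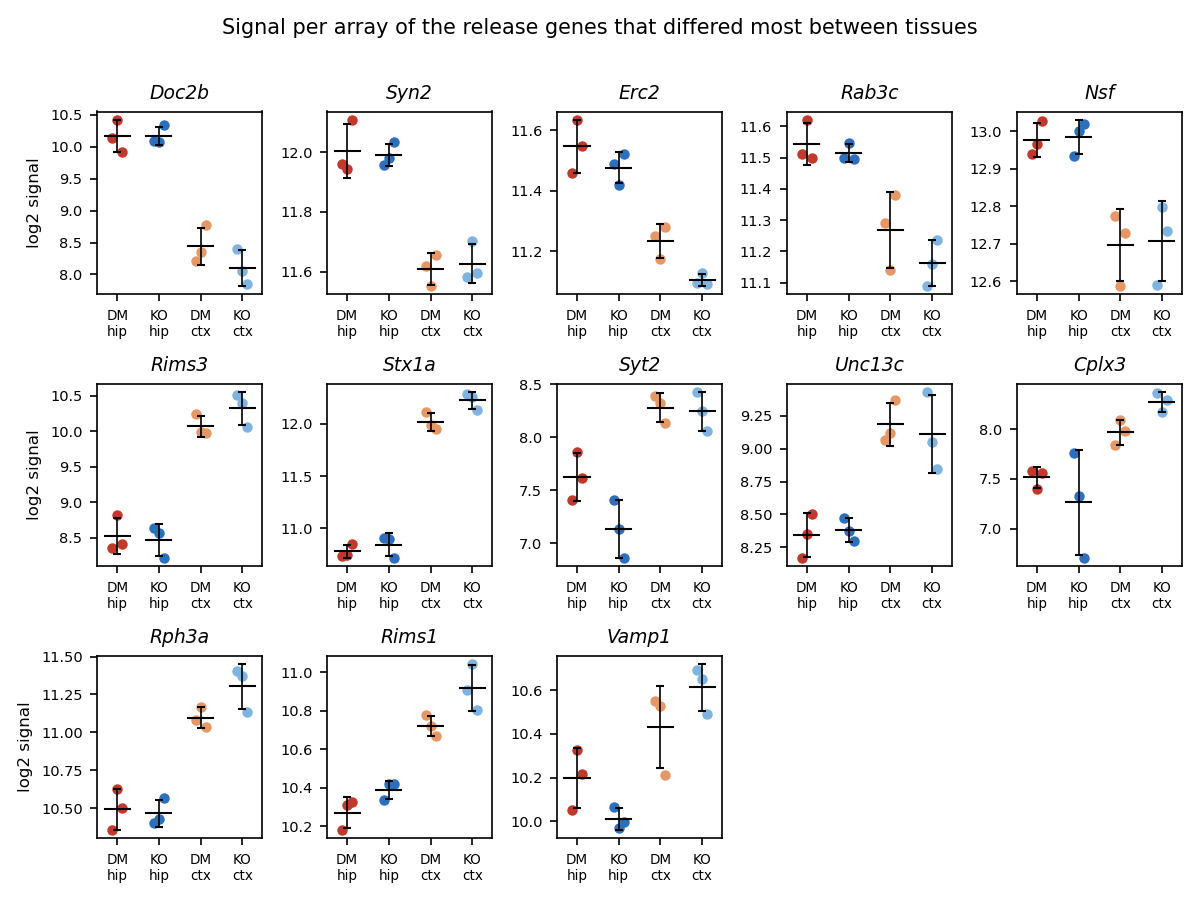
Log2 signal of the 13 named members on each of the 12 arrays, with group means and SD bars (n = 3); DM is APPsα-DM, KO is APLP2-KO, hip is hippocampus and ctx is prefrontal cortex, and each panel has its own axis that does not start at 0. The tissues are separated in every panel except Vamp1, where they overlap.

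Both genotypes showed a similar tissue pattern on separate arrays. In APPsα-DM 12 members passed (32.4%, against 10.6% of all probe sets and 16.9% of the brighter ones), 5 higher (13.5%, against 5.21% and 8.39%) and 7 lower (18.9%, against 5.42% and 8.5%) in hippocampus. In APLP2-KO 15 passed (40.5%, against 12.6% and 20.7%), 5 higher (13.5%, against 5.62% and 8.93%) and 10 lower (27%, against 6.98% and 11.8%). Of these, 11 passed in both, namely Doc2b, Erc2, Nsf, Rab3c and Syn2 on the higher side and Rims1, Rims3, Rph3a, Stx1a, Syt2 and Unc13c on the lower side. The share of all probe sets called in both was not computed, so this count is not shown to be particular to the members. The signs matched in 30 of 37 members, against 71.1% of all probe sets, and across the 37 genes, which are no independent replicates, the differences of the 2 genotypes correlated at r = 0.96. The large differences of Doc2b, Rims3 and Stx1a weigh heavily in that r, which was not computed over all probe sets. Cplx3 and Vamp1 passed in APLP2-KO (-1.02 and -0.60) but not in APPsα-DM (-0.46, adjusted p = 0.179, and -0.23, adjusted p = 0.191). The test of that difference between genotypes did not pass for either gene (adjusted p = 0.9998). With 6 arrays per tissue, 16 members had no overlap between the tissues, 5 higher (13.5%, against 6.57% of all probe sets and 11.3% of the brighter ones) and 11 lower (29.7%, against 7.08% and 12.2%).

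The balance within families of paralogues was also compared between the tissues. For each of 26 pairs of paralogues, the log2 difference between the genes was taken on each array and its shift between tissues tested with an exact permutation test, two-sided, that exchanged tissue labels within each genotype (400 arrangements, smallest possible p 0.005). After adjustment over the 26 pairs 19 passed, 11 of them at the smallest p. Many pairs share a gene, so they are not independent of each other or of the tissue calls given above. Other pairs of genes were not tested, so the count has no background share. Through the probe sets used, the balance of the RIMs moved most: Rims2 minus Rims3 averaged 1.16 ± 0.21 in hippocampus and -0.33 ± 0.19 in cortex (SD, 6 arrays each), a shift of 1.49 or 2.80-fold (exact p = 0.005, adjusted p = 0.0118). The size of that shift depends on the probe sets. Rims3 differed by -1.70 through the one used and by -1.13 with its probe sets averaged. Rims2 probe sets ranged from -0.53 to -0.08, with -0.21 for the one used. Pairs were not tested through other probe sets. Syt2 minus Syt7 shifted by -0.999 and Syt1 minus Syt2 by 0.78. Cplx2 minus Cplx3 averaged 4.36 ± 0.47 in hippocampus and 3.56 ± 0.15 in cortex, a shift of 0.80, and Unc13b minus Unc13c shifted by 0.77. Each of these 4 shifts also had the smallest p. In the synapsins the shift was towards Syn2 in hippocampus, with Syn1 minus Syn2 at 0.11 ± 0.06 there and 0.61 ± 0.09 in cortex (exact p = 0.005). Rab3a minus Rab3c shifted by -0.31 and Rab3b minus Rab3c by -0.32, each towards Rab3c in hippocampus. With all 5 Rab3c probe sets averaged, Rab3c itself rose by only 0.17. The SV2 pairs, Syt1 with Syt4, Syn1 with Syn3, Rab3a with Rab3b, and the glutamate transporters did not pass. Levels of different probe sets are not comparable, so these values show shifts in balance and not which paralogue is more abundant.

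**Figure D3:**
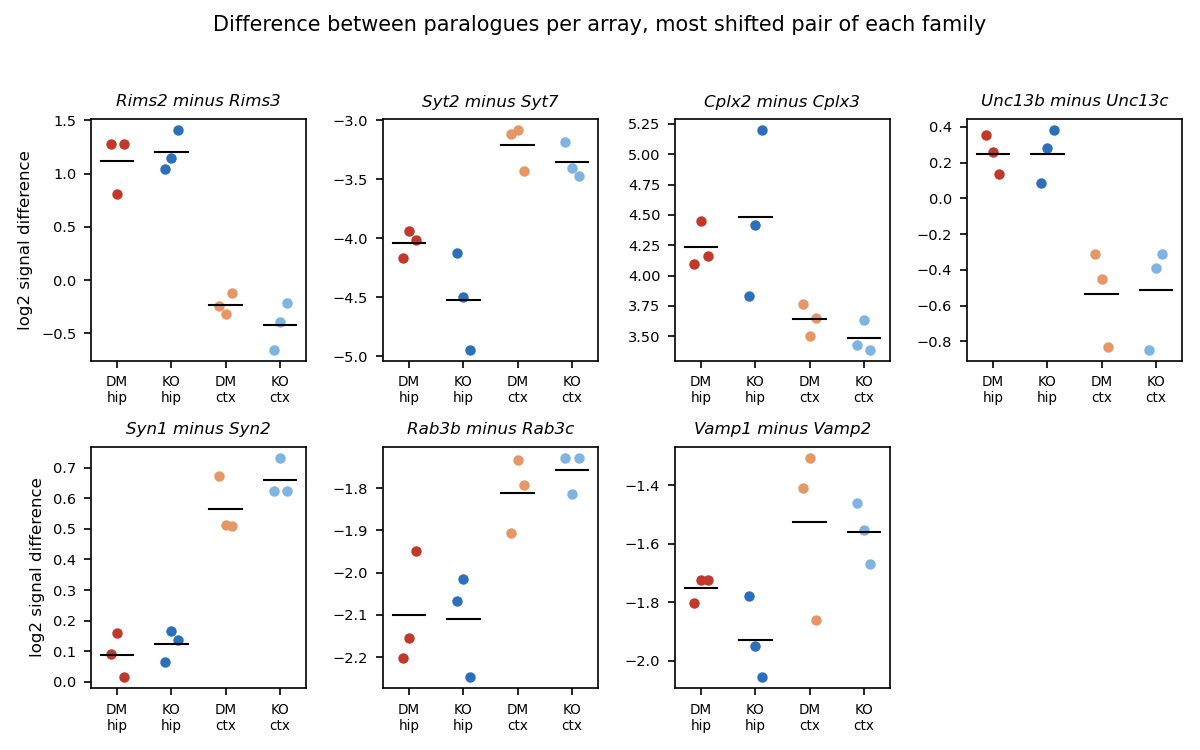
Log2 signal difference between 2 paralogues on each array, for the pair with the largest shift in each of the 7 families where a pair passed; DM is APPsα-DM, KO is APLP2-KO, hip is hippocampus, ctx is prefrontal cortex, lines are group means (n = 3), and axes differ and do not start at 0. Rims2 minus Rims3 lies above all cortex arrays on all hippocampal arrays, while Vamp1 minus Vamp2, the weakest shift shown (-0.30, adjusted p = 0.0411), overlaps. Each gene is shown through the probe set used for it.

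The genotype comparison asks whether release genes differ on the APLP2-null background when App makes only the secreted ectodomain. The App signal itself also differed, by -1.67 log2 units in cortex and -1.91 in hippocampus through its brightest probe set. The design cannot tell the changed product from the lower App signal. No member passed the threshold in cortex, in hippocampus, in the average of both tissues or in the difference between tissues. The background was equally low: 0.00888% of all probe sets (4 of 45037) were called in each of the first 3 comparisons and 0% in the last. At an unadjusted limma p under 0.05 there were 4 members in cortex (10.8%, against 4.5% of all probe sets), 1 in hippocampus (2.7%, against 4.11%), 2 in the average (5.41%, against 4.03%) and 1 in the difference (2.7%, against 3.79%). The smallest adjusted p of any member was 0.9996 in cortex and 0.9998 in hippocampus. The precision differed between members: the 95% interval of the genotype difference lay within 0.5 log2 units of 0 for 33 of 37 members in cortex and 34 of 37 in hippocampus, and the widest bound was 0.81 in cortex and 0.82 in hippocampus. A p that misses the threshold leaves differences inside these intervals possible.

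In cortex the members with the smallest p were Vamp2, Stx1a, Rims1 and Rph3a, all lower in APPsα-DM and each with an adjusted p of 0.9996. Vamp2, the main vesicular SNARE, read 11.96, 11.83 and 12.07 in APPsα-DM cortex and 12.15, 12.20 and 12.16 in APLP2-KO cortex. Its difference was -0.22 ± 0.08, and the genotypes did not overlap. Rims1 read 10.78, 10.72 and 10.67 in APPsα-DM cortex and 10.91, 11.04 and 10.80 in APLP2-KO cortex (-0.20 ± 0.08). Stx1a, whose readings are given above, differed by -0.21 ± 0.08, and for both genes the 3 APPsα-DM arrays lay below the 3 APLP2-KO arrays. The other Stx1a probe set gave -0.19, also without overlap, while Rims1 probe set 2 gave -0.17 with overlap. Rph3a differed by -0.21 ± 0.09 with readings of 11.08, 11.17 and 11.03 in APPsα-DM cortex and 11.40, 11.37 and 11.13 in APLP2-KO cortex, which overlap. Its other probe set gave -0.10. Doc2b and Erc2 were on the other side. Doc2b differed by 0.34 ± 0.17 with overlap, and Erc2, at 11.25, 11.17 and 11.28 in APPsα-DM cortex and 11.09, 11.13 and 11.09 in APLP2-KO cortex, by 0.13 ± 0.07 without overlap.

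In cortex, lower readings without overlap were counted as well, a count chosen after seeing the data. All 3 APPsα-DM arrays lay below all 3 APLP2-KO arrays for 9 of 37 members, or 24.3%, against 4.66% of all probe sets and 5.86% of the brighter ones. These were Vamp2, Stx1a, Napa, Cplx2, Cplx3, Rims1, Unc13a, Syp and Slc17a6, with differences from -0.31 (Cplx3) to -0.05 (Unc13a). One member, Erc2, lay above without overlap (2.7%, against 4.07%). Among 95 related release genes, listed further on, it was 5 (5.26%). The direction was not shared by all members: 22 of 37 were below 0, or 59.5% against 48.5% of all probe sets, with a median of -0.02 over the members and 0.00 over all. Of the general neuron markers, 9 of 10 were below 0 in cortex, 2 of them without overlap. The mean of the 10 was 11.29 to 11.37 on the APPsα-DM arrays and 11.41 to 11.44 on the APLP2-KO arrays. Other marker lists differed too: the 6 striatal markers were all above 0 in cortex (median 0.25; list means 9.33 to 9.88 in APPsα-DM and 9.17 to 9.59 in APLP2-KO), the 4 cortex markers all below 0 (median -0.12), the thalamus markers below 0 in 4 of 5 (median -0.21), the oligodendrocyte markers in 6 of 6 (median -0.03) and the astrocyte markers in 6 of 7 (median -0.07). Further lists went mostly the other way. The GABAergic markers were above 0 in 5 of 7 (median 0.06) and the endothelial markers in 6 of 7 (median 0.10). The choroid plexus markers were above 0 in 6 of 8 (median 0.13), but the microglia markers in only 3 of 7 (median -0.03). None of these markers passed, and their part in the result was not tested. The count rested partly on which arrays were used. Without APLP2-KO cortex replicate 3 it was 14 of 37, against 10.1% of all probe sets, and it was 6 with quantile normalization repeated (against 4.98%) or with all probe sets of a gene averaged (against 4.5%). In hippocampus 1 member, Rims1, was lower without overlap (2.7%, against 5.78%) and 1, Syt2, higher (2.7%, against 4.1%).

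In hippocampus the differences were smaller: their median size was 0.03 over the members, against 0.08 in cortex, while over all probe sets it was 0.06 in hippocampus and 0.07 in cortex. Syt2 had the smallest p. It was higher in APPsα-DM by 0.49 ± 0.15 (95% interval 0.17 to 0.82, adjusted p = 0.9998), with its 3 APPsα-DM arrays at 7.40 to 7.86 and its APLP2-KO arrays at 6.86 to 7.40. The other Syt2 probe sets, both dimmer, gave -0.12 and 0.01. Next came Vamp1, which read 10.05, 10.33 and 10.22 in APPsα-DM hippocampus and 10.07, 9.97 and 9.99 in APLP2-KO hippocampus (0.19 ± 0.10). Rims1 was again lower, at 10.18, 10.31 and 10.33 in APPsα-DM hippocampus and 10.34, 10.42 and 10.42 in APLP2-KO hippocampus (-0.12 ± 0.08). Through Rims1 probe set 2 the genotypes overlapped, with means of 10.06 in APPsα-DM hippocampus and 10.12 in APLP2-KO hippocampus. Cplx3 (0.25), Erc2 (0.07) and Syn3 (0.15) followed, each with overlapping genotypes. Syn3 read 7.91, 8.40 and 7.96 in APPsα-DM hippocampus and 7.86, 7.83 and 8.14 in APLP2-KO hippocampus, so that its highest array was an APPsα-DM one.

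With the tissues averaged, Rims1 had the smallest p, at -0.16 ± 0.05, followed by Syt2 at 0.27 ± 0.11, Doc2b at 0.17, Stx1a at -0.13, Erc2 at 0.10 and Vamp2 at -0.10. None passed after adjustment, and Syt2 was 0.04 with its probe sets averaged. Rims1, Syt2, Stx1a and Erc2 had the same sign in both tissues through the probe sets used. Doc2b and Vamp2 did not, and Vamp2 differed by -0.22 in cortex and 0.01 in hippocampus. Over all members the signs in the 2 tissues matched in 13 of 37, against 52.5% of all probe sets. In the test of the difference between tissues, Vamp1 had the smallest p: its genotype difference was 0.37 ± 0.14 higher in hippocampus than in cortex (adjusted p = 0.9998). The next were Syt2 (0.46), Cplx3 (0.56), Vamp2 (0.23), Sv2c (-0.24) and Rph3a (0.24), none of which passed.

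**Figure D4:**
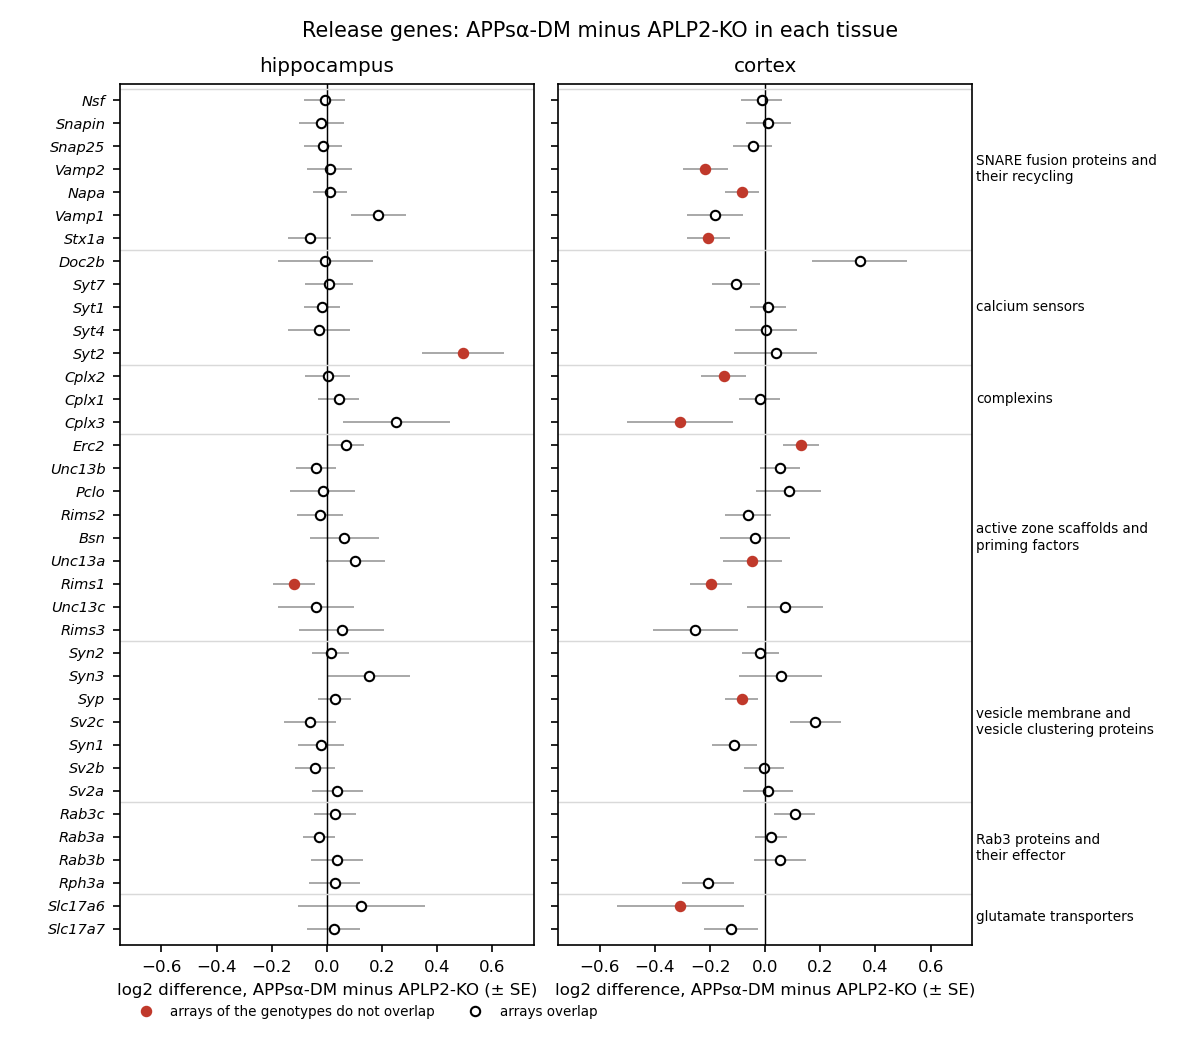
Log2 difference, APPsα-DM minus APLP2-KO, of each member in hippocampus (left) and cortex (right) with moderated SE bars, on the same scale; filled red points mark members whose 3 APPsα-DM and 3 APLP2-KO arrays do not overlap. In cortex 9 filled points lie below 0 and Erc2 above, while in hippocampus Rims1 and Syt2 alone are filled.

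As a summary of level, the log2 signals of the 37 members were averaged on each array, a description without a test. The mean was 10.33 to 10.50 in APPsα-DM hippocampus, 10.37 to 10.39 in APLP2-KO hippocampus, 10.50 to 10.57 in APPsα-DM cortex and 10.54 to 10.61 in APLP2-KO cortex. Hippocampal arrays thus lay lower, with 1 APPsα-DM hippocampus close to the lowest cortex array, and the genotypes overlapped in both tissues. The lowest mean, 10.33, came from APPsα-DM hippocampus 1, which also had the highest choroid plexus mean (8.83) and the lowest general neuron mean. The highest hippocampal mean, 10.50 in APPsα-DM hippocampus 2, went with a choroid plexus mean of 5.75. Other arrays did not keep that order: APPsα-DM hippocampus 3 had a member mean of 10.43 with a choroid plexus mean of 8.44, and APLP2-KO hippocampus 1 a member mean of 10.39 with the lowest choroid plexus mean of the hippocampal arrays, 5.50. In cortex, the lowest member mean of each genotype was on the array with the higher choroid plexus signal, APPsα-DM cortex 2 (7.80) and APLP2-KO cortex 3 (7.27). The part of choroid plexus tissue in the member mean was not tested.

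**Figure D5:**
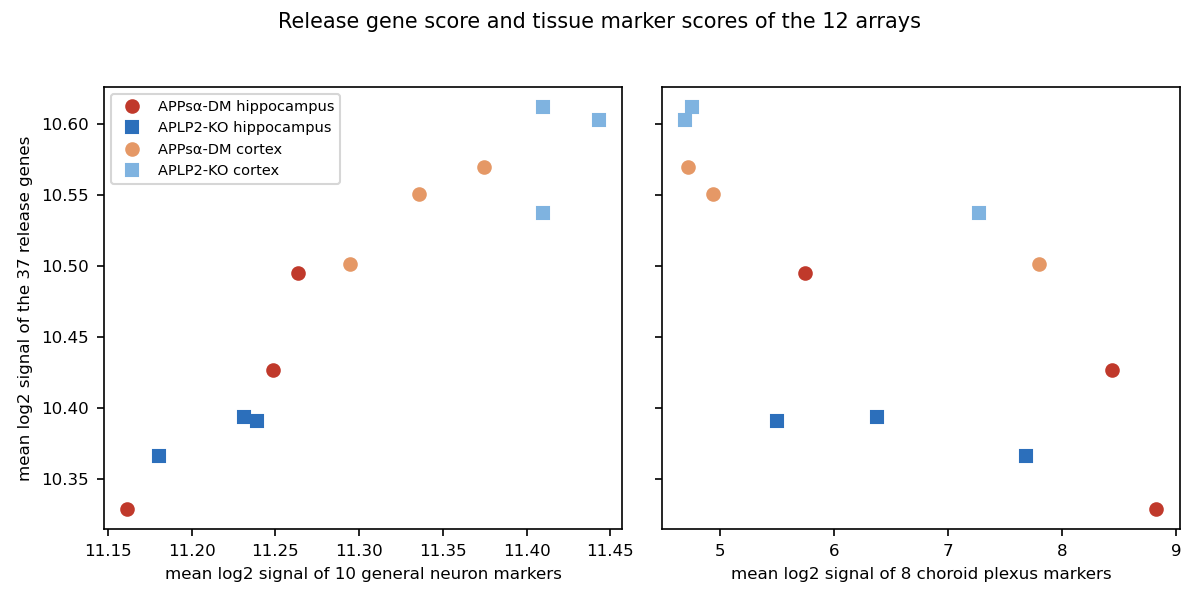
Mean log2 signal of the 37 release genes on each array, against the mean of 10 general neuron markers (left) and of 8 choroid plexus markers (right); circles are APPsα-DM, squares APLP2-KO, darker colours hippocampus and lighter ones cortex, and axes do not start at 0. The lowest array, APPsα-DM hippocampus 1, is lowest in neuron markers and highest in choroid plexus markers.

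Members were about as reproducible within groups as other bright genes. Their median within-group SD was 0.1001 log2 units, against 0.098 over probe sets with a mean of at least 6 and 0.118 over all. The largest were those of Slc17a6 (0.34), Cplx3 (0.28) and Doc2b (0.25). Of the 29 members with several probe sets, none had probe sets called in opposite directions between the tissues. In Cplx2, Rab3a, Syt1 and Syt4 a probe set other than the one used was called, as given above.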

How the data were processed

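Affymetrix arrays measured 12 samples, 3 in each of 4 groups. Per the submitters' processing notes, the authors used RMA and the affy package (versions not given in the sources used here), and the deposited values are log2 signals from 1.80 to 14.36. RMA corrects background, normalises arrays by quantiles and summarises each probe set. Of 45101 probe sets, 64 controls were left out. The platform annotation gave 1 symbol for 34945 probe sets, several for 932 and none for 9160. With 3 arrays a group, a member's genotype difference within a tissue had a median SE of 0.0846.

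Group means were fitted to all 12 arrays with limma 3.58.1 in R 4.3.3 (8 residual degrees of freedom, moderated by eBayes), and the genotype effect averaged over tissues on 6 means, each of the cortex and hippocampus arrays with 1 genotype and number, a joining that the labels do not establish as 1 mouse. Tests are two-sided, with Benjamini-Hochberg adjustment over 45037 probe sets and a threshold of 0.05. The code was tested on simulated data. Per-array values are given for the 6 members with the smallest p per genotype comparison and up to 8 called rises and 8 falls between tissues, in full or as ranges. Other choices of filter, probe set, normalization, variance prior, arrays and covariates were tried. Members, lists and tests were chosen with earlier results of these data known. Replicate numbers were not shown to pair samples: correlations of deviations were 0.02 to 0.16 between the tissues of a genotype.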

Additional observations from a re-analysis of the deposited data

How the results depend on the processing

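No member passed in a genotype comparison under any alternative run. Between the tissues, the count of called members, 19 with genotypes averaged, ranged from 17 to 22 (16.9% to 39.5% of the probe sets tested), in APPsα-DM from 8 to 14 (7.42% to 21.9%) and in APLP2-KO from 13 to 19 (9.01% to 27.3%). With genotypes averaged, Rims2, Unc13a and Napa lost their call and Bsn, Slc17a6, Syt1 and Syt4 gained one in 1 or more of 20 settings. A replicate block, by number or by genotype and number, gave 20 calls with genotypes averaged (20.5% of all probe sets), including the 19, 11 in APPsα-DM (9.94%), 15 in APLP2-KO (12.1%) and 0 in each genotype comparison. Fitting the 12 arrays singly, without joining them by number, also gave 0 for the genotypes averaged over tissues (0.0111% of all probe sets), a setting chosen after seeing the data. The numbers were not shown to pair samples.

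The count of members lower without overlap in APPsα-DM cortex, 9, was 14 without the 2 cortex arrays high in Ttr (background 17.1%), a setting chosen after seeing the data, as was the count itself. Leaving out each cortex array in turn gave 9 to 14 (the highest without APLP2-KO cortex replicate 3), with a background of 8.24% to 10.2%, since groups of fewer arrays overlap less. Cplx3 in hippocampus, 0.25 higher in APPsα-DM, ranged from -0.028 (without APLP2-KO hippocampus replicate 3) to 0.50 with 1 array left out. Syn3, 0.15 higher, ranged from -0.0045 (without APPsα-DM hippocampus replicate 2) to 0.25. Syt2 in hippocampus, 0.49, was 0.13 with all its probe sets averaged, and averaged over tissues, 0.27, it was 0.04 so, 0.08 when the 2 high-Ttr cortex arrays were dropped and 0.15 without APLP2-KO replicate 3. With 1 array left out, Doc2b in cortex, 0.34, fell to 0.18 (without APPsα-DM replicate 3) or 0.22 (without APLP2-KO replicate 3), and Erc2 in hippocampus, 0.07, ranged from 0.027 (without APPsα-DM replicate 2) to 0.11 (without APPsα-DM replicate 1) and was 0.042 without APLP2-KO replicate 2. In hippocampus, Rims1 was -0.07 without APPsα-DM replicate 1 and Vamp1 0.12 without APPsα-DM replicate 2, and the difference between tissues of Cplx3, 0.56, was 0.28 without APLP2-KO hippocampus replicate 3. Of the calls within 1 genotype, over 15 settings, those lost in APPsα-DM were Rab3c (10 settings), Nsf (9), Sv2b (9) and Syt2 (3), and in APLP2-KO Napa (10), Nsf (6), Cplx1 (4) and Rab3c (1). Gained calls in 1 or more settings were those of Cplx1, Cplx3, Rims2, Slc17a6, Sv2a, Syt4 and Vamp1 in APPsα-DM and of Rims2, Sv2a, Sv2b, Syt4, Unc13a and Vamp2 in APLP2-KO. The causes were not tested. Few arrays limit the precision, and dim probe sets such as Sv2c carry little signal over background.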

Other observations

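Other genes of the release and recycling pathway, 95 measured of 101 listed, also differed between the tissues: 16 were higher and 28 lower in hippocampus by limma's adjusted p (46.3%, against 21% of all probe sets and 32.4% of those with a mean of at least 6). By direction, 10.3% of all probe sets and 15.8% of the brighter ones were higher, and 10.7% and 16.6% lower. The falls were led by Ap2b1, an adaptor subunit of clathrin coats (8.94 ± 0.47 in hippocampus and 10.73 ± 0.23 in cortex, SD, 6 arrays each, 3.47-fold lower), Doc2a, the paralogue of Doc2b (7.97 ± 0.15 and 9.18 ± 0.17, 2.32-fold lower), and Rims4, the other short RIM (7.36 ± 0.14 and 8.23 ± 0.21, 1.83-fold lower). The rises were led by Ppfia2, a liprin-alpha of the active zone (9.34 ± 0.11 and 8.36 ± 0.10, 1.97-fold higher), Rab27a (7.10 ± 0.09 and 6.16 ± 0.16, 1.92-fold higher) and Syt17 (10.35 ± 0.10 and 9.51 ± 0.20, 1.78-fold higher). Each of these 6 was without overlap between the tissues. By role, 1 calcium sensor was higher and 6 were lower of 10 (70% called), and 4 endocytosis genes were higher and 6 lower of 22 (45.5%). In the active zone and Rab list 5 were higher and 8 lower of 25 (52%), and in the vesicle membrane list 3 and 4 of 14 (50%). The fusion machinery, with 3 higher and 4 lower of 24 (29.2%), was below the 32.4% of the brighter probe sets.

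The pair of Doc2 genes went in opposite directions, Doc2b higher by 1.89 and Doc2a lower by 1.21 log2 units in hippocampus. None of the 95 genes passed in a genotype comparison. In the genotype comparison averaged over tissues the smallest p-values were those of Syt9 (0.23), Vamp8 (0.20) and Ppfia3 (-0.21), each with an adjusted p of 0.9999.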
